A study of Mus musculus with 26 samples.

Results

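The primary cilium and hedgehog genes described here are 44 genes taken by name from the gene tables of a study of Fgfr1op in intestinal epithelium. They were found in each table, among 40481 genes in the mouse tables and 55093 in the human table. RNA was sequenced in 26 samples of 3 kinds, and the authors deposited counts of reads per gene. Small intestinal spheroids, which are epithelial cultures grown in Matrigel with L-WRN conditioned medium (a source of Wnt, R-spondin and Noggin), were labelled Fgfr1op KO or wt, 4 samples each, at day 3 after hydroxytamoxifen, which both groups received. Small intestinal crypts, released from tissue with EDTA, were labelled Fgfr1op KO or wt, 6 samples each, at day 6 or day 9 after tamoxifen, again in both groups. The column names of the crypt table give the genotype and not the day, so both days were pooled within a genotype. Caco-2, a human colorectal adenocarcinoma line, carried a hairpin under doxycycline control, which targeted either Fgfr1op (shFgfr1op) or no gene (scramble), 3 samples each, at day 3 after doxycycline. The design text gives 4 mice in each spheroid group and 3 mice in each crypt group, and the labels list 3 crypt samples for each genotype and day. Whether those 3 mice are counted per day, so that the 6 crypt libraries of a genotype come from 6 mice, is not stated, and the crypt p-values treat the 6 libraries as separate animals. What drives the tamoxifen-inducible deletion, the exons it removes, and the strain and age of the mice are not given in the sources used here. The labels name 1 hairpin against Fgfr1op, and whether the 3 Caco-2 samples of a group are separate cultures is not stated, so the p-values for Caco-2 cover the spread among these samples and that spread may be technical.

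The primary cilium is a single antenna of microtubules that grows from the mother centriole of a resting cell. Intraflagellar transport (IFT) carries its cargo in trains, with the IFT-B complex moving outward and the IFT-A complex moving back, the BBSome couples membrane proteins to these trains, and the transition zone forms the gate at the base. Vertebrate hedgehog signalling runs through this organelle: the receptor Ptch1 holds Smo out of the cilium, ligand releases Smo into it, and the Gli factors, restrained by Sufu, are processed there. In the gut the epithelium makes Indian hedgehog, and the stroma beneath it is the main responder, with Gli1 and Ptch1 as direct target genes. Fgfr1op (also FOP or Cep43) encodes a protein of the centrosome and of centriolar satellites that takes part in ciliogenesis. By role the members are 11 IFT-B genes, 3 of IFT-A with its adaptor Tulp3, 8 of the BBSome with Arl6, 2 GTPases of the ciliary membrane, 3 genes that start ciliogenesis at the distal appendages of the mother centriole (Cep83, Cep164, Ttbk2), 11 of the transition zone, 3 of the hedgehog receptor and signal carriers (Ptch1, Smo, Sufu) and 3 Gli transcription factors.

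Many cilium genes share a sequence word, the X-box, to which RFX transcription factors bind. The word searched consists of GTTNCC and, after 3 bases of any kind, GNNAC, and it was looked for on both strands of the RefSeq promoters (GRCm38.p6, 250 bases before to 50 after each start), where 39 of the 44 members were matched. Ift80, Ift81, Ift122, Tmem67 and Gli1 had no entry. The word lay in 12 of the 39 members (30.8%), in 8 of 84 matched genes of a wider list of cilium and hedgehog genes (9.52%) and in 685 of 27025 genes with a promoter in the table (2.53%). The 12 were Ahi1, Bbs1, Bbs4, Bbs7, Cep83, Ift22, Ift57, Mks1, Nphp4, Tctn1, Tctn2 and Tmem216. The word is close to its own reverse complement, so some of these windows match on both strands. The GLI-like word GACCACCCA lay in 0 of the 39 and in 0.289% of genes. The windows below are those of Cep83, which rose in KO crypts, of Ift57 and Nphp4, which were at or near 0 in crypts, of Tctn2, whose human counterpart fell in Caco-2, of Mks1, and of both matches in Ift22. Capitals mark the word, and each line reads 5′ to 3′ on the strand that holds it.
Cep83 (chr10:94688768-94688797, plus strand): ccctccgaGTTTCCCGGGCTACctcaacct
Ift57 (chr16:49699199-49699228, plus strand): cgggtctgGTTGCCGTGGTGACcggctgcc
Nphp4 (chr4:152477903-152477932, minus strand): gctggcgcGTTACCTAGGAGACgggcaccg
Tctn2 (chr5:124598679-124598708, plus strand): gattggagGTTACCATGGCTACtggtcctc
Mks1 (chr11:87853183-87853212, plus strand): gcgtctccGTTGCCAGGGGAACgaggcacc
Ift22 (chr5:136908079-136908108, plus strand): ctgtcaggGTTTCCTGGGCTACtgcgcagc
Ift22 (chr5:136908109-136908138, minus strand): gctggtcaGTTTCCACGGCGACcgggaaca

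Spheroid libraries held 44152608 to 67630241 counts, crypt libraries 48068740 to 103352863 and Caco-2 libraries 37281821 to 50965004. Fgfr1op was at 17.4 ± 1.98 CPM (counts over the TMM-scaled library total) in KO against 23.2 ± 1.12 in WT spheroids (SD, n = 4; edgeR adjusted p 0.117; exact two-sided permutation p 0.0286, the smallest that 4 against 4 can give). In crypts it was at 21.1 ± 5.22 against 32.9 ± 6.27 CPM (SD, n = 6; edgeR adjusted p 0.0261; exact permutation p 0.00649), and the KO libraries (11.7 to 25.9) overlapped the WT libraries (25.2 to 39.0). In Caco-2 it was at 6.82 ± 0.41 against 15.7 ± 0.21 CPM (n = 3; edgeR adjusted p 1.65e-14; exact permutation p 0.1, the smallest that 3 against 3 can give). The transcript was thus detected in every KO library, and its difference passed in crypts and Caco-2 and not in spheroids. How far these counts check the deletion was not tested, since the deleted exons are not given. Crypt KO libraries 4, 5 and 6 stood apart from the other 9, since their scores on principal component 1, which held 56.0% of the variance, ran from 102 to 124 and those of the rest from -64.4 to 5.16. The crypt column names also carry a number that falls in a lower run (KO 1 to 3, WT 1 and 2) and an upper run (KO 4 to 6, WT 3 to 6), and the labels do not say what it marks. Whether KO 4 to 6 are the KO samples of day 9 is not stated, so the day cannot be told apart from this split. Crypt results below are therefore also given within each run and without those 3 libraries, as choices made after seeing the data. In spheroids WT 1 was female by Xist and Y-linked counts and the other 7 were male. In crypts KO 6 and WT 6 were male and the other 10 female.

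Of 9 epithelial markers, each was above 20 CPM in all mouse libraries, and so were those of Caco-2 other than CDX1, which had at most 0.107 CPM there. Those of fibroblasts summed to 1.96 to 3.39 CPM over 10 genes in spheroids and to 5.52 to 68.7 CPM in crypts, with Lum at 0 in spheroids. Foxj1, the master regulator of motile cilia, reached at most 0.026 CPM in a crypt library, and was at 2.35 ± 0.64 CPM in KO and 2.61 ± 1.04 in WT spheroids (SD).

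The IFT-B genes Ift20 and Ift52 led the order of levels in wild-type spheroids and crypts, while other IFT-B genes ranked far lower. Levels between genes are compared as CPM per kilobase of merged exons (GENCODE M21). Ift20, the subunit that also works at the Golgi, was first in WT spheroids at 15.2 ± 0.59 and in WT crypts at 74.6 ± 18.6 CPM per kb, and Ift52, of the IFT-B core, was second at 14.3 ± 1.35 and 29.4 ± 3.57 (SD, n = 4 and 6). Ift46, also of the core, was at rank 5 in spheroids (6.29 ± 0.29) and 3 in crypts (9.53 ± 2.01). Arl3, a GTPase of the ciliary membrane, was at rank 3 in spheroids (8.60 ± 0.28 CPM per kb) and at rank 14 in crypts. Ift81 was at rank 25 in both tissues, and Ift80 at 33 in spheroids and 32 in crypts. The hedgehog carriers sat high in spheroids, where Smo was at rank 4 (7.80 ± 0.88 CPM per kb) and Sufu at rank 11 (3.48 ± 0.17 CPM per kb), and low in crypts, at 0.417 ± 0.16 (rank 28) and 0.311 ± 0.085 (rank 30). Tulp3 was at rank 14 in spheroids (2.71 ± 0.093) and 38 in crypts (0.0637 ± 0.017). Ift57, an IFT-B subunit of the outer part of the train, was at 0.985 ± 0.028 CPM per kb in WT spheroids and 0.0103 ± 0.0097 in WT crypts. Gli1, Gli2, Gli3 and Nphp4 took the last 4 places in both tissues. Most neighbours in the order were not separated: only 8 of 43 neighbouring pairs in spheroids and 4 of 43 in crypts had libraries that did not overlap, among them Ift20 over Ift52 and Ift52 over Ift46 in crypts. The 2 tables were normalised separately, and spheroids and crypts were prepared differently, so the orders stand side by side without a test.

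**Figure D1:**
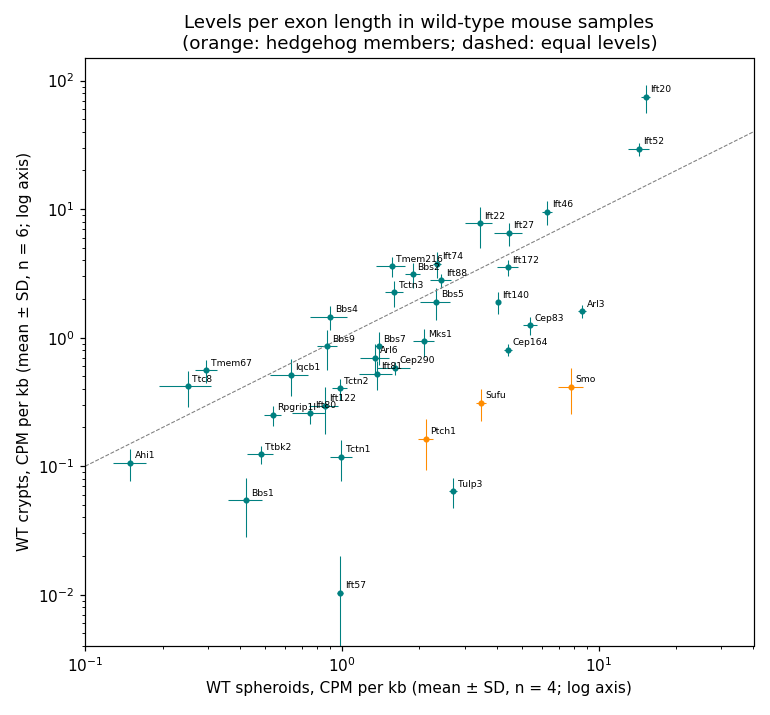
Level of the members per kilobase of merged exons in WT spheroids (horizontal, log axis, mean ± SD of 4 libraries) and WT crypts (vertical, log axis, mean ± SD of 6); orange points are hedgehog members and the dashed line marks equal levels. Ift20 and Ift52 lie at the top of both axes, while Smo, Sufu, Ptch1, Tulp3 and Ift57 lie well below the dashed line; members near 0 in either tissue and 1 that is not reported here are left out, and a bar that reaches the lower edge runs to or near 0.

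In spheroids labelled KO, no cilium or hedgehog member passed the threshold (an adjusted p below 0.05 over all 15915 genes tested, edgeR quasi-likelihood test). Of 44 members, 40 had enough counts to be tested, the exceptions being Gli1, Gli2, Gli3 and Nphp4. Over all genes 0.232% were called (37 genes, 0.189% higher and 0.044% lower), so a count of 0 among 40 members is near the background and is no result about the members. Without adjustment 1 of the 40 had a p below 0.05, against 14.6% of all genes. DESeq2 and limma voom with sample quality weights (voom below) also called 0 members. The median log2 fold change was 0.035 over the members tested and -0.002 over all genes, and 25 of 40 were higher by point estimate, against 49.6% of all genes.

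The 3 members of smallest p in spheroids were Cep164, Mks1 and Ift27. Cep164, the distal appendage protein that recruits the kinase Ttbk2, was at 47.1, 56.4, 48.4 and 53.0 CPM in KO and at 43.8, 43.2, 43.2 and 46.9 CPM in WT. It was the only member whose groups did not overlap (1 of 40, or 2.50%, against 8.56% of all genes), with a log2 fold change of 0.21 ± 0.073 (SE; edgeR adjusted p 0.236). Mks1, of the transition zone, was at 6.79, 5.81, 8.50 and 6.90 CPM in KO and 7.33, 8.76, 9.12 and 8.42 in WT (log2 fold change -0.27 ± 0.14; edgeR adjusted p 0.404). The groups overlapped through KO 3 and WT 1. Ift27, the small GTPase of IFT-B, was at 13.0, 17.1, 13.5 and 15.4 against 14.8, 10.9, 13.2 and 12.2 CPM (log2 fold change 0.21 ± 0.12; edgeR adjusted p 0.457), also with overlap.

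The hedgehog receptor and carriers were well expressed in both spheroid groups and lay close together. Ptch1 was at 29.6, 26.9, 29.3 and 32.7 CPM in KO and 28.7, 32.5, 28.1 and 30.7 CPM in WT, with a log2 fold change of -0.02 ± 0.081. Smo, the signal carrier that enters the cilium, was at 40.4, 29.4, 41.3 and 44.1 CPM in KO and 41.4, 44.5, 39.0 and 50.5 CPM in WT (-0.18 ± 0.13). Sufu, the restraint on the Gli factors, was at 25.5, 31.5, 27.7 and 28.1 against 26.4, 26.8, 28.5 and 25.4 CPM (0.08 ± 0.080). All 3 overlapped between groups, with edgeR adjusted p of 0.932, 0.549 and 0.695. The Gli factors were close to the limit of counting: Gli1 had 8, 15, 4 and 11 counts in the KO libraries and 4, 8, 3 and 16 in the WT libraries, Gli2 had at most 4 counts in a library and Gli3 at most 2. A count of 3 corresponds to 0.043 to 0.0691 CPM in these libraries, so a difference in Gli2 or Gli3 was not detectable at this depth. Of 88 tested genes on the wider cilium and hedgehog lists (100 genes) 0 passed, among them the ligand Ihh at 67.5 ± 18.0 against 86.3 ± 15.7 CPM. Unadjusted, 8 of the 88 had an edgeR p below 0.05.

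**Figure D2:**
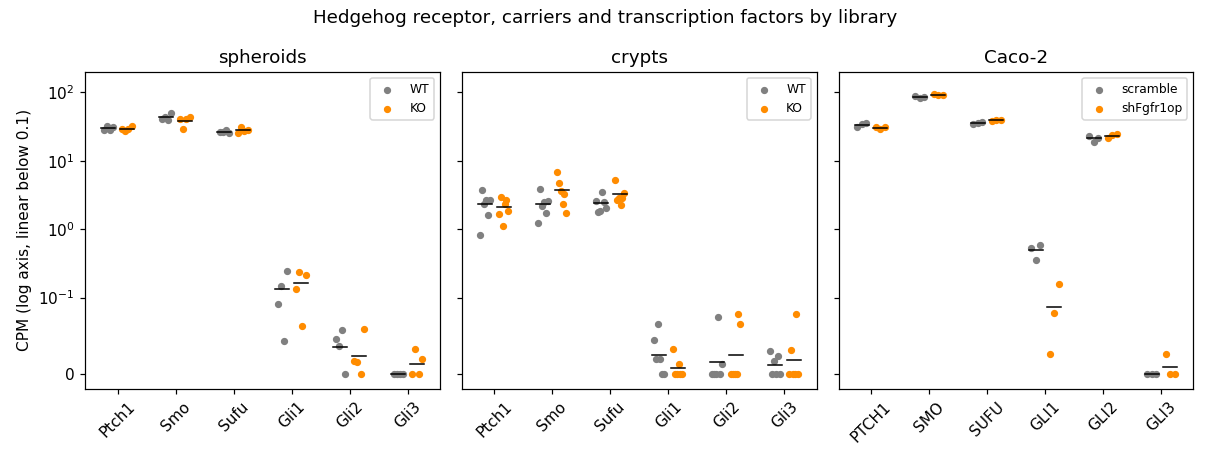
CPM of the 6 hedgehog members in every library of spheroids, crypts and Caco-2 (log axis, linear below 0.1), grey for WT or scramble and orange for KO or shFgfr1op, with black bars at the group means. Ptch1, Smo and Sufu run from 25.4 to 50.5 CPM in spheroids and from 0.814 to 6.91 CPM in crypts, the mouse Gli genes reach at most 0.246 CPM, and GLI1 is the factor whose Caco-2 groups separate.

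In crypts, 8 members passed the threshold, 6 of them lower in KO. Of 44 members 39 were tested, since Gli1, Gli2, Gli3, Nphp4 and Ift57 had too few counts. The 8 are 20.5% of 39, against 24.5% of all 16413 genes tested, so the share called was near the background and is no result about the members as a group. The split differed from that of all genes: 2 members were higher (5.13%, against 14% of all genes) and 6 lower (15.4%, against 10.5%). The median log2 fold change was -0.19 over the members and 0.055 over all genes, and 12 of 39 members were higher by point estimate, against 54% of all genes. These are descriptions, and no test of the list was made. Groups did not overlap in 3 members (7.69%), against 10.6% of all genes, and 12 members had an unadjusted p below 0.05, against 38.1%. In bulk samples, fewer cells of a type and less RNA per cell cannot be told apart.

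The IFT-B genes held 4 of the 6 lower calls, out of 10 tested and 0 higher, where 10.5% of all genes were lower and 14% higher, and no test of the group was made. Ift52 (chromosome 2, 163017354 to 163046141 of mm10) ran from 50.6 to 65.0 CPM in KO (median 57.9) and from 71.4 to 96.3 in WT (median 81.7), without overlap (log2 fold change -0.52 ± 0.12 SE; edgeR adjusted p 0.00759). Ift46 (chromosome 9, 44767908 to 44793447), which binds Ift52 in the core, ran from 33.3 to 49.3 CPM in KO (median 41.0) and 46.8 to 76.8 in WT (median 61.0), and KO 3 at 49.3 lay above WT 3 and WT 6 (-0.58 ± 0.15; edgeR adjusted p 0.014). Ift80 (chromosome 3, 68892499 to 69004570), a peripheral subunit, ran from 1.12 to 2.42 CPM in KO (median 1.61) and 2.26 to 3.97 in WT (median 3.42), overlapping through KO 2 and WT 1 (-0.96 ± 0.24; edgeR adjusted p 0.012). Ift172 (chromosome 5, 31253277 to 31291116), the largest IFT-B subunit, ran from 13.2 to 18.9 CPM in KO (median 17.8) and 19.6 to 28.9 in WT (median 22.2), without overlap (-0.45 ± 0.14; edgeR adjusted p 0.0301). Its call was lost without a filter on low counts (adjusted p 0.0532) and without KO 4 (0.071), KO 5 (0.0609) or WT 5 (0.0564). Ift20, Ift22, Ift27, Ift74 and Ift88 did not pass, with log2 fold changes between -0.39 and -0.17. Ift81 had 5.36 ± 3.36 CPM in KO against 3.05 ± 0.77 in WT and did not pass (0.81 ± 0.39; edgeR adjusted p 0.144). Its higher KO mean came from KO 4, 5 and 6 at 7.04, 9.49 and 8.42 CPM, while KO 1 to 3 were at 1.62, 3.04 and 2.54 and the WT libraries at 1.996 to 4.36.

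The BBSome held the other lower calls, 2 of 8 tested, beside 10.5% of all genes, also without a test of the group. Bbs2 (chromosome 8, 94067954 to 94098928) ran from 4.05 to 7.33 CPM in KO (median 4.62) and from 7.21 to 13.0 in WT (median 10.9), with a small overlap between KO 3 and WT 1 (log2 fold change -0.94 ± 0.21; edgeR adjusted p 0.00669). Bbs9 (chromosome 9, 22475715 to 22888280) ran from 1.53 to 4.38 CPM in KO (median 2.30) and 3.16 to 7.84 in WT (median 5.75), overlapping through KO 2 (-1.07 ± 0.29; edgeR adjusted p 0.0171). Both encode subunits of the complex whose loss causes Bardet-Biedl syndrome. The other 6 of the 8 tested did not pass: Bbs1, Bbs4, Bbs5, Ttc8 and Arl6 had log2 fold changes from -0.62 (Ttc8) to -0.002 (Bbs1), and Bbs7 was at 0.37 ± 0.22. Arl3, the GTPase that unloads lipid-anchored cargo in the cilium, was at -0.37 ± 0.19 and did not pass.

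The members that rose were Cep83 and Tulp3. Cep83 (chromosome 10, 94688654 to 94790853), the distal appendage protein needed for the mother centriole to dock at the membrane, ran from 10.9 to 18.3 CPM in KO (median 16.1) and from 7.27 to 10.7 in WT (median 9.29), without overlap (log2 fold change 0.75 ± 0.16; edgeR adjusted p 0.00651). Tulp3 (chromosome 6, 128321161 to 128355851), which brings receptors to the cilium together with IFT-A, ran from 0.519 to 2.34 CPM in KO (median 1.13) and from 0.425 to 0.853 in WT (median 0.597), with overlap (1.20 ± 0.37; edgeR adjusted p 0.0296). Its 3 highest libraries were KO 4, 5 and 6 at 1.40, 2.31 and 2.34 CPM, while KO 1 to 3 (0.833, 0.519 and 0.857) lay among or next to the WT libraries. The Tulp3 call was lost in 7 of the 12 fits that left out 1 library, with adjusted p up to 0.0764. The IFT-A subunits Ift140 (-0.57 ± 0.21; edgeR adjusted p 0.06) and Ift122 (-0.04 ± 0.29) did not pass. The other distal appendage genes did not pass, with Cep164 at 0.21 ± 0.16 and Ttbk2, whose model shares 29.9% of its exon bases with Cdan1, at 0.10 ± 0.22. None of the 10 tested transition zone genes passed, from Tctn3 at -0.49 ± 0.20 to Tctn1 at 0.48 ± 0.31. This small count stands beside 24.5% of all genes called, and no test of the group was made.

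**Figure D3:**
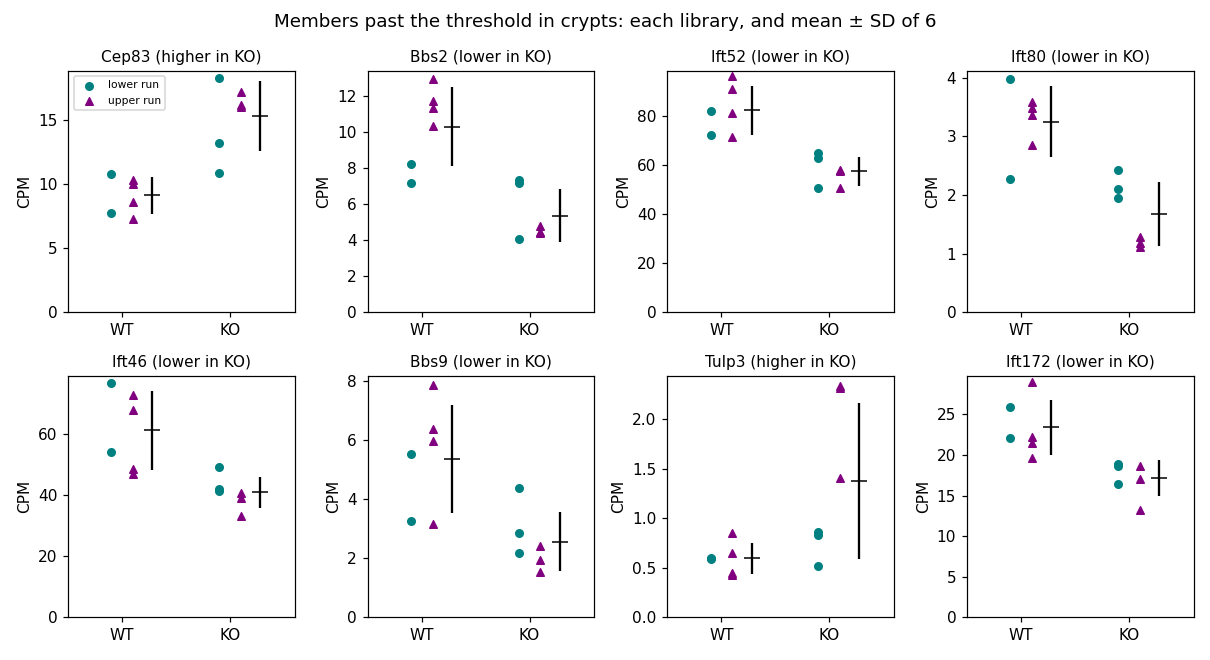
CPM of the 8 members past the threshold in crypts, 1 point per library (teal circles for the lower run of column numbers, purple triangles for the upper run), with mean ± SD of 6 libraries in black. The upper-run KO libraries, KO 4 to 6, are the lowest for Ift80 (1.12 to 1.28 CPM) and the highest for Tulp3 (1.40 to 2.34 CPM); Ift52, Ift172 and Cep83 show no overlap between genotypes.

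These crypt calls rest in part on KO 4 to 6. Without those 3 libraries 924 genes were called and 0 of the 8 members passed. Their directions were kept, at 0.63 for Cep83, -0.74 for Bbs2, -0.47 for Ift52, -0.59 for Ift80, -0.47 for Ift46, -0.77 for Bbs9, 0.31 for Tulp3 and -0.37 for Ift172, with edgeR adjusted p from 0.091 to 0.629. Within the lower run alone (3 KO against 2 WT) 27 genes and 0 members were called. The log2 fold changes there were 0.61 for Cep83, -0.32 for Bbs2, -0.38 for Ift52, -0.54 for Ift80, -0.57 for Ift46, -0.49 for Bbs9, 0.30 for Tulp3 and -0.42 for Ift172. Within the upper run alone (3 against 4) all 8 passed, among 14 members and 6940 genes called, at 0.82, -1.39, -0.65, -1.51, -0.68, -1.60, 1.71 and -0.54 in the same order. With the run as a term in the fit all 8 passed, among 10 members. Markers of several epithelial types moved with the same 3 libraries. The 4 stem cell markers summed to 14.3 to 952 CPM in KO and 852 to 2059 in WT, the 4 Paneth markers to 5584 to 38315 against 24656 to 61362, with Olfm4 at 22.4, 17.0 and 8.37 CPM in KO 4 to 6 against 428 to 914 in KO 1 to 3. Of 9 epithelial markers 3 were higher in KO (Krt8, Krt18 and Krt19) and 0 lower, 1 of 5 enterocyte and 1 of 10 immune markers (Itgam) were lower, and 1 of 2 tested markers of enteric glia and neurons (Tubb3) was higher. The part of cell makeup in the members' differences was not tested.

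The hedgehog members were low in crypts and none passed. Ptch1 ran from 1.11 to 2.94 CPM in KO (median 2.08) and from 0.814 to 3.72 in WT (median 2.52), a log2 fold change of -0.15 ± 0.33. Smo ran from 1.71 to 6.91 CPM in KO (median 3.48) and from 1.24 to 3.87 in WT (median 2.33; 0.68 ± 0.34; edgeR adjusted p 0.153). Sufu ran from 2.23 to 5.27 CPM in KO (median 2.88) and from 1.799 to 3.54 in WT (median 2.28; 0.43 ± 0.24; edgeR adjusted p 0.202). KO 1 was the highest library for both Smo and Sufu, and the groups overlapped for each of the 3 genes. Smo, not called in the main fit, passed without KO 4 to 6, where it was higher in KO by 1.12 (edgeR adjusted p 0.0477). Even there KO 3 at 3.67 CPM lay below WT 2 at 3.87. Smo was at 0.07 (0.859) within the upper run, and at 0.42 (0.324) when KO 1 alone was left out. Gli1 had at most 4 counts in a crypt library, Gli2 at most 6 and Gli3 at most 4, so no difference was detectable at this depth. Markers of fibroblasts, the stromal cells that normally answer hedgehog ligand, differed between libraries within a genotype, and their part in Smo and Ptch1 was not tested. Dcn was at 0.635 to 28.5 CPM in KO and 1.38 to 31.7 in WT.

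Of 81 tested genes on the wider lists, 7 rose and 12 fell in KO crypts (8.64% and 14.8%, against 14% and 10.5% of all genes), near the background in number. The rises were Nek2 and Plk1, kinases that promote cilium disassembly and mitosis, the RFX factor Rfx1, the kinesin-2 motor subunit Kif3a, the kinase Stk36 of the hedgehog pathway, the appendage protein Fbf1 and the IFT-A subunit Ift43. Nek2 ran from 7.44 to 21.0 CPM in KO (median 10.5) and from 3.84 to 6.99 in WT (median 5.61), without overlap (log2 fold change 1.13 ± 0.25; edgeR adjusted p 0.00647). Plk1 was at 109 ± 24.7 against 58.1 ± 20.1 CPM (SD; 0.90 ± 0.23). Kif3a stood at 17.7, 22.3 and 19.6 CPM in KO 4 to 6 and at 6.25 to 8.03 CPM in the other 9 libraries, so its rise (0.95 ± 0.28) was 0.10 without those 3. Stk36 was likewise at 1.00, 1.72 and 0.805 CPM in KO 4 to 6 and at most 0.456 elsewhere.

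The falls on the wider lists included IFT-B subunits and a regulator of the BBSome, while the IFT-A subunit Ift43 rose. They stand beside 10.5% of all genes lower and 14% higher, and no test of these groups was made. Ttc30b, an IFT-B subunit, ran from 2.64 to 5.67 CPM in KO (median 3.99) and from 7.76 to 9.88 in WT (median 9.05), without overlap (log2 fold change -1.05 ± 0.19; edgeR adjusted p 0.00273). It has close copies, Ttc30a1 and Ttc30a2, between which reads may have been split. Hspb11, also of IFT-B (Ift25), was at 4.53 ± 0.66 against 6.54 ± 1.03 CPM (-0.53 ± 0.16), and Lztfl1, a regulator of the BBSome, at 8.70 ± 1.40 against 12.1 ± 1.90 CPM (-0.48 ± 0.16). Cc2d2a of the transition zone fell from 9.71 ± 2.18 to 4.74 ± 1.29 CPM (-1.03 ± 0.21; edgeR adjusted p 0.00544). The others were the motor subunits Dync2li1 (-0.87 ± 0.25) and Kifap3 (-0.68 ± 0.23), the chaperonin-like Mkks (-0.57 ± 0.16), the cargo genes Rab8a (-0.46 ± 0.15) and Iqce (-0.96 ± 0.28), the centriole cap protein Cep97 (-0.67 ± 0.21), the ubiquitin ligase adaptor Btrc that acts on Gli proteins (-0.46 ± 0.13), and Hhat, which attaches palmitate to hedgehog ligands (-0.73 ± 0.25). Of the 19 calls, 8 passed without KO 4, 9 without KO 5, 8 without KO 6, 9 without WT 5 and 12 without a filter on low counts. Without KO 4 to 6 together 2 passed, Ttc30b (-0.80; edgeR adjusted p 0.0358) and Nek2 (1.20; 0.0317). Within the lower run 0 of 19 passed and within the upper run 17, and none of the 19 changed direction in these fits.

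**Figure D4:**
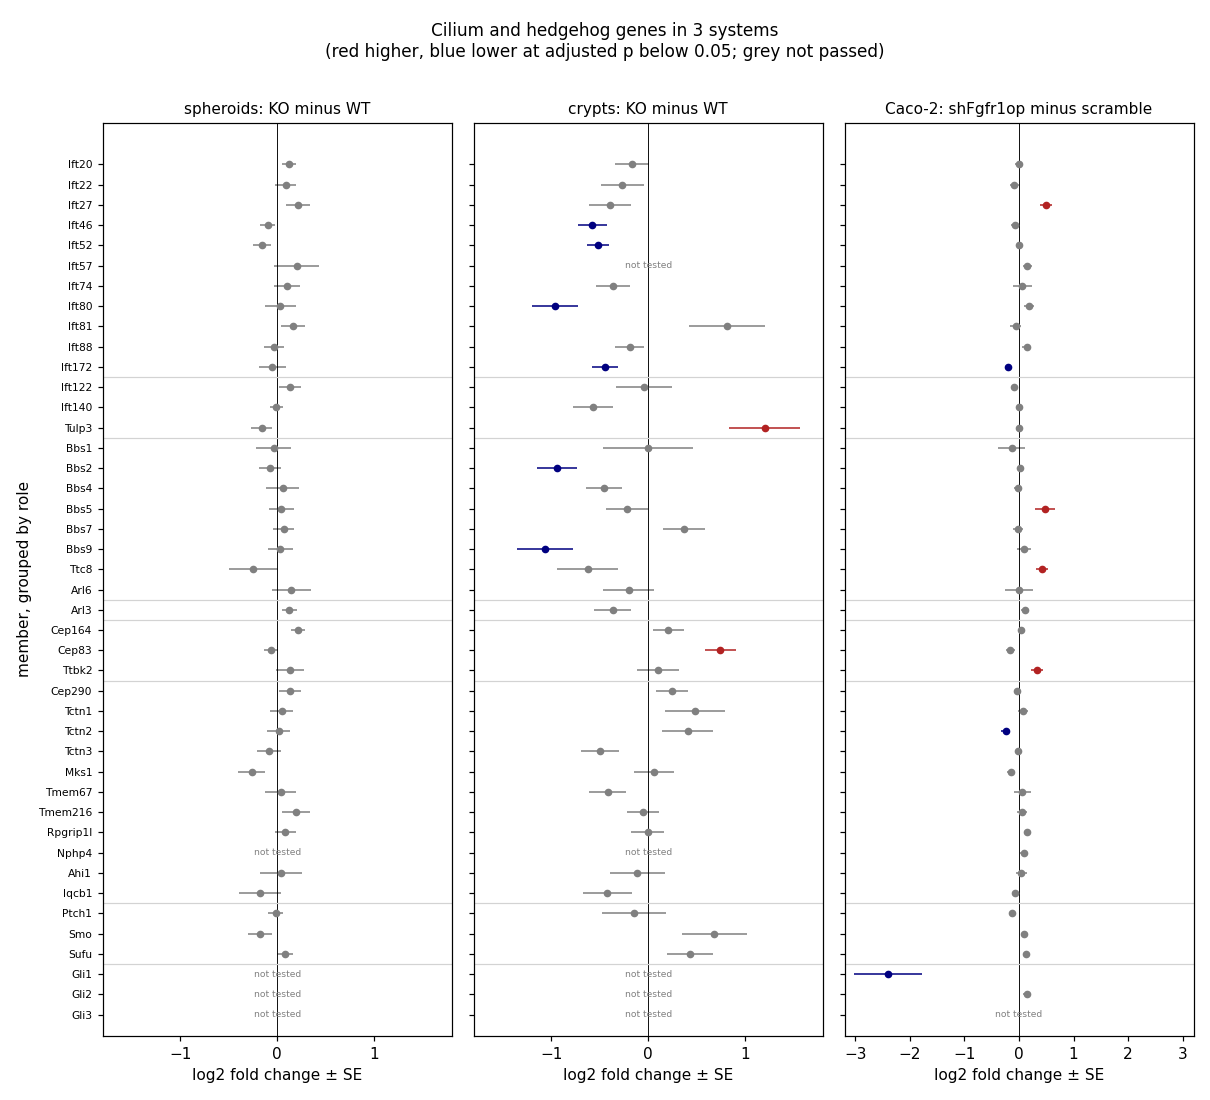
Fitted log2 fold change ± SE of the members, other than 1 that is not reported here, in KO against WT spheroids and crypts and in shFgfr1op against scramble Caco-2, with members in rows grouped by role; red and blue mark members past the threshold as higher or lower, grey those that did not pass, and the Caco-2 axis is wider to hold GLI1. Spheroid values run from -0.27 to 0.21, the crypt values of IFT-B and the BBSome lie mostly below 0, and Caco-2 values other than GLI1 run from -0.25 to 0.49.

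In Caco-2, 8 members passed the threshold, 5 higher and 3 lower in shFgfr1op than in scramble. They are 18.6% of 43 tested members, below the 31.9% called among all 18905 genes tested, with 11.6% higher (15.7% of all genes) and 6.98% lower (16.2%). Groups did not overlap in 14 members (32.6%), against 42.4% of all genes. The median log2 fold change was 0.020 over the members and -0.005 over all genes. By point estimate 24 of 43 members were higher, against 49.1% of all genes, and 14 had an unadjusted p below 0.05, against 39.8%. The median absolute log2 fold change was 0.092 over the members and 0.18 over all genes. These groups of genes were not matched for expression level. The values are descriptions, and no test of the list was made.

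The largest difference was in GLI1, the Gli factor that is itself a target of the pathway. It had 1, 3 and 7 counts in the shFgfr1op libraries and 20, 18 and 27 in scramble, which is 0.0262, 0.0792 and 0.158 CPM against 0.536, 0.359 and 0.586 CPM. The groups did not overlap, and the fitted log2 fold change was -2.40 ± 0.62 (edgeR adjusted p 0.00203). At 3 counts or fewer in 2 libraries its size depends on how low counts are handled, and it ran from -3.15 to -1.999 when 1 library was left out. GLI2, the main activator of the family, was at 21.8, 24.1 and 24.3 CPM against 22.9, 19.1 and 21.6 CPM (0.15 ± 0.072; edgeR adjusted p 0.121). GLI3 had 1 count in 1 library and 0 in the other 5. So of the 3 factors GLI2 was the one present in quantity, and it did not pass.

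The receptor and carriers differed by small amounts that did not pass. SMO was at 95.1, 91.5 and 92.0 CPM in shFgfr1op and 89.6, 84.0 and 86.9 in scramble, without overlap (log2 fold change 0.097 ± 0.040; edgeR adjusted p 0.059). SUFU was at 38.5, 39.4 and 39.6 against 34.2, 36.1 and 36.7 CPM, also without overlap (0.13 ± 0.055; 0.0581). PTCH1, a target gene of the pathway as well as its receptor, was at 31.5, 29.2 and 31.2 against 31.0, 34.3 and 35.3 CPM (-0.13 ± 0.060; 0.0977). Both SMO and SUFU passed with RLE size factors (0.0498 and 0.0492) and with a filter of at least 1 CPM (0.0452 and 0.0477), and SMO also with voom (0.0305) and without shFgfr1op 2 (0.0474) or scramble 1 (0.0484). PTCH1 passed without scramble 1 (0.0312).

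Among the cilium members of Caco-2, IFT27 and the BBSome subunit TTC8 rose with the smallest adjusted p. IFT27 was at 11.6, 8.55 and 11.1 CPM in shFgfr1op and 7.26, 7.72 and 7.22 in scramble (log2 fold change 0.49 ± 0.11; edgeR adjusted p 0.000356). TTC8 was at 9.05, 10.2 and 9.88 against 7.91, 6.56 and 7.35 CPM (0.42 ± 0.11; 0.00174). The groups of both genes did not overlap. TTBK2, the kinase that removes the cap from the mother centriole, was at 10.3, 10.98 and 10.0 against 7.16, 9.31 and 8.33 CPM (0.33 ± 0.10; 0.0129). BBS5 was at 3.91, 5.36 and 5.18 against 3.99, 4.07 and 2.34 CPM, with overlap (0.48 ± 0.18; 0.0349). BBS5 did not pass with DESeq2 (0.0949), with voom (0.0858), or without shFgfr1op 2, shFgfr1op 3 or scramble 3, and TTBK2 did not pass without shFgfr1op 2 (0.0519) or scramble 1 (0.12).

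The lower cilium members were IFT172 and TCTN2. IFT172 was at 38.4, 34.5 and 32.1 CPM in shFgfr1op and 41.1, 38.8 and 40.7 in scramble, without overlap (log2 fold change -0.20 ± 0.059; edgeR adjusted p 0.0064). TCTN2, a tectonic of the transition zone, was at 15.1, 14.9 and 13.8 against 17.9, 17.1 and 16.9 CPM, also without overlap (-0.25 ± 0.079; 0.0118). Without shFgfr1op 3 neither passed (0.0981 and 0.0702), and TCTN2 did not pass without scramble 1 (0.0529). The other tested cilium members did not pass, with log2 fold changes from -0.16 (CEP83) to 0.18 (IFT80). IFT88, the IFT-B subunit best known from the Oak Ridge polycystic kidney mouse, was at 13.6, 15.5 and 13.8 against 13.1, 13.4 and 12.4 CPM.

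Of 89 tested genes on the wider lists, 23 rose in shFgfr1op Caco-2 and 13 fell (25.8% and 14.6%, against 15.7% and 16.2% of all genes). IHH, the epithelial hedgehog ligand, was at 9.84, 9.85 and 10.4 CPM in shFgfr1op and 26.4, 26.2 and 24.9 in scramble (log2 fold change -1.36 ± 0.076; edgeR adjusted p 2.64e-19). SCUBE2, which helps release the ligand, was at 0.682, 0.897 and 1.04 against 1.74, 1.81 and 1.67 CPM (-0.99 ± 0.27; 0.00297). Both were thus lower in each shFgfr1op library than in any scramble library. The co-receptor CDON was at 10.1, 10.6 and 11.7 against 6.67, 8.07 and 7.79 CPM (0.52 ± 0.10; 8.21e-05). BMP4 and FOXF2, which answer hedgehog in gut stroma, rose from 48.7 ± 2.01 to 73.6 ± 2.90 CPM (0.59 ± 0.047) and from 3.73 ± 0.47 to 6.26 ± 0.17 CPM (0.74 ± 0.14). Genes that answer the pathway elsewhere thus went in both directions, GLI1 lower and BMP4 and FOXF2 higher. Among signal carriers 5 of 9 rose, among them the protein kinase A subunit PRKACA (62.9 ± 1.58 to 75.5 ± 2.96 CPM) and the casein kinase CSNK1A1 (122 ± 1.61 to 137 ± 2.81 CPM), which both phosphorylate Gli proteins. BTRC was 1 of 2 that fell (41.7 ± 0.99 to 33.5 ± 1.01 CPM).

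The counts of the cilium lists that follow are small, stand beside 15.7% of all genes higher and 16.2% lower, and were not tested as groups. Of 9 motor genes of IFT, 2 rose and 2 fell. The dynein-2 subunit WDR34 rose from 91.9 ± 2.02 to 123 ± 5.27 CPM (log2 fold change 0.42 ± 0.039; edgeR adjusted p 2.54e-12) and KIF3A by 0.34 ± 0.069, while KIF3B, its partner in kinesin-2, fell from 170 ± 2.80 to 134 ± 1.37 CPM (-0.34 ± 0.035; 5.07e-11). NEDD9 (-0.41 ± 0.055) and HDAC6 (-0.11 ± 0.039), which promote cilium disassembly, fell. The HDAC6 call was lost with DESeq2 (0.0538) and without shFgfr1op 1 or 2 or scramble 1 or 3 (adjusted p up to 0.138). Among genes of the ciliary membrane and its cargo 2 of 10 rose and 3 fell, the Rab11 effector RAB11FIP3 (-0.34 ± 0.045), the lipid carrier UNC119B (-0.28 ± 0.045) and IQCE (-0.30 ± 0.056). CCP110, the cap that holds back ciliogenesis at the mother centriole, rose from 13.96 ± 1.42 to 17.6 ± 1.10 CPM (0.34 ± 0.083), and LRRC45 of the distal appendages by 0.19 ± 0.047. The IFT-B genes TTC30A and TTC30B, which are close copies of each other, rose by 0.32 ± 0.12 and 0.33 ± 0.11 (edgeR adjusted p 0.0364 and 0.0202). TTC30A passed in 1 of the 6 fits without a library, the one without shFgfr1op 2 (up to 0.172 in the others), and TTC30B was lost without shFgfr1op 3, scramble 2 or scramble 3 (up to 0.0979). The chaperonin-like MKKS rose by 0.16 ± 0.056 and BBS12 fell by 0.45 ± 0.16. MKKS was lost without shFgfr1op 2, scramble 2 or scramble 3 (up to 0.091) and BBS12 without shFgfr1op 3, scramble 1 or scramble 2 (up to 0.229). Of 13 other transition zone genes 2 rose (TMEM237 and CC2D2A) and INVS fell, and of 7 ciliary transcription factors 3 rose (RFX5, RFX7 and MCIDAS) and 0 fell. CC2D2A was lost without shFgfr1op 1 or 2 or scramble 1 or 3 (up to 0.14) and MCIDAS without shFgfr1op 3 or any 1 scramble library (up to 0.163). RFX5 was lost without shFgfr1op 3 (0.124) or scramble 3 (0.0817), and RFX7 without scramble 2 (0.0815). Markers of cell types moved between the Caco-2 groups as well. The stem cell markers summed to 73.3 to 76.6 CPM in shFgfr1op and 34.0 to 37.3 in scramble (3 of 3 tested higher), the enterocyte markers to 1015 to 1166 against 1909 to 1952 CPM (1 higher and 3 lower of 4), and 4 of 8 epithelial markers were lower. Both tested Paneth markers were lower, LYZ at -0.57 ± 0.071 and ANG at -0.59 ± 0.15, and so was the 1 tested endothelial marker, PECAM1 (-0.91 ± 0.15). The 10 fibroblast markers summed to 270.1 to 273 CPM in shFgfr1op and 320.3 to 337 in scramble, and of 5 tested 1 was higher and 3 lower. PDGFRB was at 7.74 ± 0.87 against 23.2 ± 1.44 CPM (-1.59 ± 0.087), VIM at 12.8 ± 1.27 against 32.0 ± 0.93 (-1.32 ± 0.072), PDGFRA at 62.1 ± 4.64 against 75.0 ± 4.26 (-0.28 ± 0.050) and COL3A1 at 0.956 ± 0.014 against 0.441 ± 0.15 (1.13 ± 0.38). COL1A1 did not pass (188 ± 6.89 against 198 ± 3.94 CPM), and DCN was at 0. The part of these markers in the differences of the members, and of BMP4 and FOXF2, was not tested.

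Across the 3 systems 15 members passed in at least 1, and 29 in none. Of these 29, Gli3 was tested in none. Of the members, Ift172 alone passed in more than 1, lower in crypts (-0.45) and in Caco-2 (-0.20), and it was at -0.05 ± 0.14 in spheroids. Over all genes tested, 0.232% passed in spheroids, 24.5% in crypts and 31.9% in Caco-2. How many of all genes passed in at least 1 system, or in more than 1, was not computed. These counts are therefore no result about the members. Ift27 and Ttc8, which rose in Caco-2, were at -0.39 ± 0.21 and -0.62 ± 0.31 in crypts, and Bbs2, which fell in crypts, was at 0.02 ± 0.051 in Caco-2. Cep83 rose in crypts and was at -0.16 ± 0.079 in Caco-2 (edgeR adjusted p 0.121). These differences between systems were not tested. The 3 systems had separate control libraries, and whether the spheroid and crypt mice were independent of each other was not tested.

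**Figure D5:**
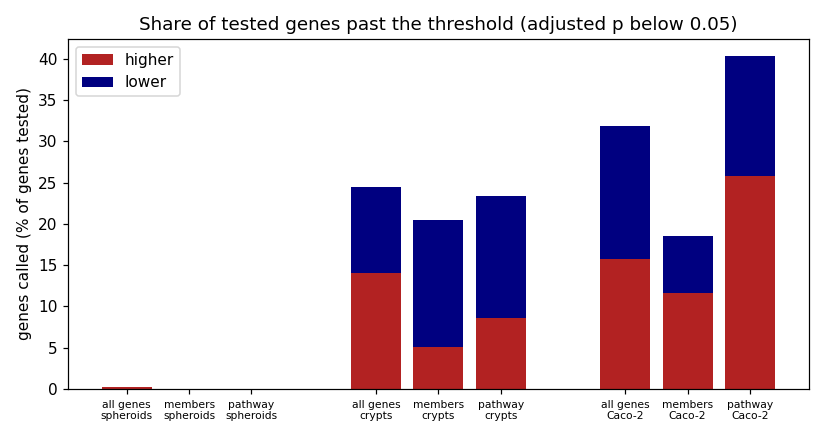
Share of tested genes past the threshold (vertical, percent, from 0), split into higher (red) and lower (blue), for all genes, the members and the wider pathway lists in each system. The members reach 20.5% in crypts and 18.6% in Caco-2, below all genes at 24.5% and 31.9%, and 0 in spheroids.

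Members were also counted by whether the mouse promoter held the X-box word. In crypts 1 of 10 tested members with the word passed (Cep83, higher) with a median log2 fold change of 0.03, and of 25 without it 1 was higher and 5 lower, with a median of -0.29. In Caco-2, whose own promoters were not searched, 1 of 12 with the word in mouse was lower (TCTN2), against 5 higher and 1 lower of 26 without it. In spheroids 0 of 11 and 0 of 25 passed. Over all genes tested, 24.5% passed in crypts (14% higher, 10.5% lower), 31.9% in Caco-2 (15.7% and 16.2%) and 0.232% in spheroids. The counts by word are small and were not tested against these shares. A match is a description of the letters, and the difference between the groups of members was not tested.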

How the data were processed

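Reads were sequenced from total RNA of 8 spheroid, 12 crypt and 6 Caco-2 samples, and the authors deposited 1 table of raw counts per gene for each kind of sample. STAR and DESeq2 are named in the submitters' processing notes without versions, with the mm10 build. The Caco-2 identifiers are human Ensembl genes, so the build behind that table, the strand setting and the handling of multiply mapped reads are not given in the sources used here. Repeated identifiers were removed (276 in each mouse table and 116 in Caco-2).

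From these counts, TMM-scaled CPM and edgeR's quasi-likelihood test (edgeR 4.0.16, R 4.3.3) were computed in each table separately, after edgeR's filter on low counts, with Benjamini-Hochberg adjustment over all genes tested and a threshold of 0.05. The groups came from the labels, and crypt days were pooled. Alternatives were RLE size factors, no filter, a filter of 1 CPM, DESeq2 1.42.0 and limma voom (3.58.1) with sample quality weights. Further ones were a threshold of 0.01, leaving out each library and a replicate block. The run of crypt column numbers, a block on the number from 1 to 6 in the crypt column names, and leaving out KO 4 to 6 were added after seeing the data. The fit was tested on simulated data with 200 changed genes per table. Changes of 1.5-fold were recovered in 49.3% of cases for spheroids, 1.49% for crypts and 56.7% for Caco-2. For 2-fold changes the shares were 74.6%, 35.8% and 67.2%, and for 4-fold changes 89.4%, 80.3% and 93.9%. Of the genes called, 7.19%, 7.14% and 3.33% were unchanged ones. These shares were obtained with 200 changed genes per table, whereas the main fits called 37 genes in spheroids, 4014 in crypts and 6031 in Caco-2. The adjustment depends on how many genes differ, so the shares are not detection limits for the members. A member that did not pass may still differ, and the size of difference that could be missed in these data was not tested. The 44 members, the wider lists (100 genes) and the markers were chosen with earlier results of these data known. The members given in detail are the hedgehog members, those called in a fit, and, where fewer than 3 were called, the 3 of smallest p. Their values are printed for every sample in spheroids and Caco-2, and as ranges with medians in crypts. For the Gli genes in crypts, and for Gli2 and Gli3 in spheroids, only the largest count is printed. The values of 1 member and of 1 wider-list gene are not reported here, while both stay in the counts. Wider-list genes are named where called in a mouse fit and, in Caco-2, as the 3 of smallest p in each list with a call. The number of columns of per-sample values not used was 0.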

Additional observations from a re-analysis of the deposited data

Results flagged for a closer look

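In WT spheroids, Cep164 in library 4 stood apart from the other 3, at 46.9 CPM against 43.2 to 43.8. It lay on the side of the KO libraries, the lowest of which was at 47.1 CPM. In KO crypts, Sufu in library 1 stood apart at 5.27 CPM, with the nearest library at 3.33 and the lowest at 2.23. Such a gap arises by chance in about 1 in 20 groups of samples. Cep83 was higher in every KO crypt library than in any WT library (log2 fold change 0.75) and lower in every shFgfr1op Caco-2 library than in any scramble library (-0.16), and the difference between the 2 systems was not tested.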

How the results depend on the processing

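In spheroids the count of members called was 0 in all 15 alternatives, while the count over all genes went from 37 to 154 without a filter, 566 with DESeq2, 2 at a threshold of 0.01 and 3 to 160 when 1 library was left out. Fgfr1op in spheroids passed with DESeq2 (-0.42; adjusted p 0.00622). Mouse Ptch1, which passed in none of these fits, changed sign in spheroids with voom (0.0078) and without KO 2 (0.025) or WT 2 (0.022), with a range of -0.069 to 0.025 when 1 library was left out, and in crypts without WT 2 (0.041), with a range of -0.36 to 0.041. In crypts, genes called went from 4014 to 7208 with voom, 1447 at 0.01, 27 in the lower run, 6940 in the upper run and 924 without KO 4 to 6. The members called went from 8 to 14, 3, 0, 14 and 1 in the same order, and were 6 to 10 when 1 library was left out. The median of the members was -0.35 in the upper run. Crypt Fgfr1op did not pass at 0.01 (-0.65) or in the lower run (-0.82), and ran from -0.74 to -0.52 when 1 library was left out, without passing when WT 2 (0.0528) or WT 6 (0.0543) was missing. In Caco-2, 5 members passed at 0.01 and 5 to 8 when 1 library was left out, with a median of 0.011 to 0.039. With the replicate number as a block, 71 genes and 0 members were called in spheroids, and the same 8 members in Caco-2. The crypt column names carry a number from 1 to 6, and whether it is the replicate number of the labels is not stated. With that number as a block, 2732 genes and 6 members were called, without Tulp3 (0.0686) and Ift172 (0.0705), and 7 of the 19 wider-list genes. Deviations of same-numbered samples were at most weakly correlated (-0.0652 to 0.106 over the 3 systems), and the main fits treated no number as a pair. In Caco-2 the best match of numbers 1 and 2 was the same number, and that of 3 was 2. Such correlations do not settle whether samples were paired. No fit with the day was run, since the columns do not give it. The causes of these changes were not tested. Depth limits what can be said of the Gli genes.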
